A study of Homo sapiens with 4 samples.

Results

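ATF4 and 9 genes of its stress response were followed in the human lung carcinoma line A549, with and without induction of A-FOS by doxycycline. The members are ATF4, ATF5, CEBPG, DDIT3, TRIB3, CHAC1, DDIT4, SESN2, GDF15 and STC2. They were chosen by name, and all 10 were found by Ensembl ID among the 58051 genes counted and among the 18046 genes tested. PolyA RNA was sequenced from 4 libraries. All 4 come from A549 cells in which piggyBac transposase had placed a doxycycline-inducible A-FOS gene at random sites, so the controls carry the transgene too. The minus Dox group (n = 2) received no treatment, and the plus Dox group (n = 2) received doxycycline at 1 µg/mL in the medium, for a time that the labels used here do not give. Nothing in the labels tells whether a group's libraries are separate cultures, or whether the line is 1 clone, so p-values measure only the spread between these libraries, which may be technical. A-FOS, a dominant-negative derivative of FOS, pairs with JUN proteins and holds them off DNA. Doxycycline and A-FOS go together in these libraries, and their parts in any difference below cannot be told apart.

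The integrated stress response starts when kinases phosphorylate the translation factor eIF2alpha, which lowers general protein synthesis while letting ribosomes reach the ATF4 reading frame. ATF4, a basic leucine zipper (bZIP) factor, then pairs with C/EBP proteins and activates genes for amino acid supply, stress signalling and feedback. Because ATF4 is controlled largely at translation, its mRNA is only 1 layer of the pathway, and neither protein nor eIF2alpha phosphorylation was measured here. Doxycycline inhibits bacterial ribosomes and can also slow mitochondrial translation, and mitochondrial stress is a known trigger of ATF4.

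The 10 genes moved in both directions. At an adjusted p of 0.05 (edgeR, quasi-likelihood, Benjamini-Hochberg over all tested genes), ATF4, TRIB3, DDIT4 and STC2 were lower in plus Dox, ATF5, CEBPG and GDF15 were higher, and DDIT3, CHAC1 and SESN2 did not pass. Of all tested genes 56.9% passed, 28.4% as higher and 28.4% as lower, so 7 of 10 members with 3 higher and 4 lower is a share near the background. The members' median log2 fold change was −0.18, beside 0.00 for all tested genes. That median turned to 0.036 with library size only, where all tested genes had a median of 0.22. Detrending, which takes out a smooth trend of the fold changes on GC content, exon length and abundance, turned it to 0.015. All tested genes then had a median of 0.031. Without minus Dox replicate 1 the members' median was −0.10. Their range of log2 fold changes ran from −1.73 to 0.48. The values of the groups did not overlap in any of the 10 members, with plus Dox above in 4 and below in 6. Among all tested genes 77.0% were separated in this way, 38.7% above and 38.3% below. In bulk RNA a lower value from fewer cells that express a gene and one from less RNA per cell cannot be told apart.

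The scaling of the libraries moves these values and not the 7 calls. With library size only, the median of all tested genes shifts from 0.00 to 0.22 on the log2 scale and 72.9% of called genes are higher, against 50.0% with TMM scaling. Under that scaling the same 4 members were lower, and SESN2 joined the higher members at 0.31 (edgeR adjusted p = 0.000377). SESN2 also passed as higher, at 0.16 (edgeR adjusted p = 0.0485), after detrending.

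**Figure D1:**
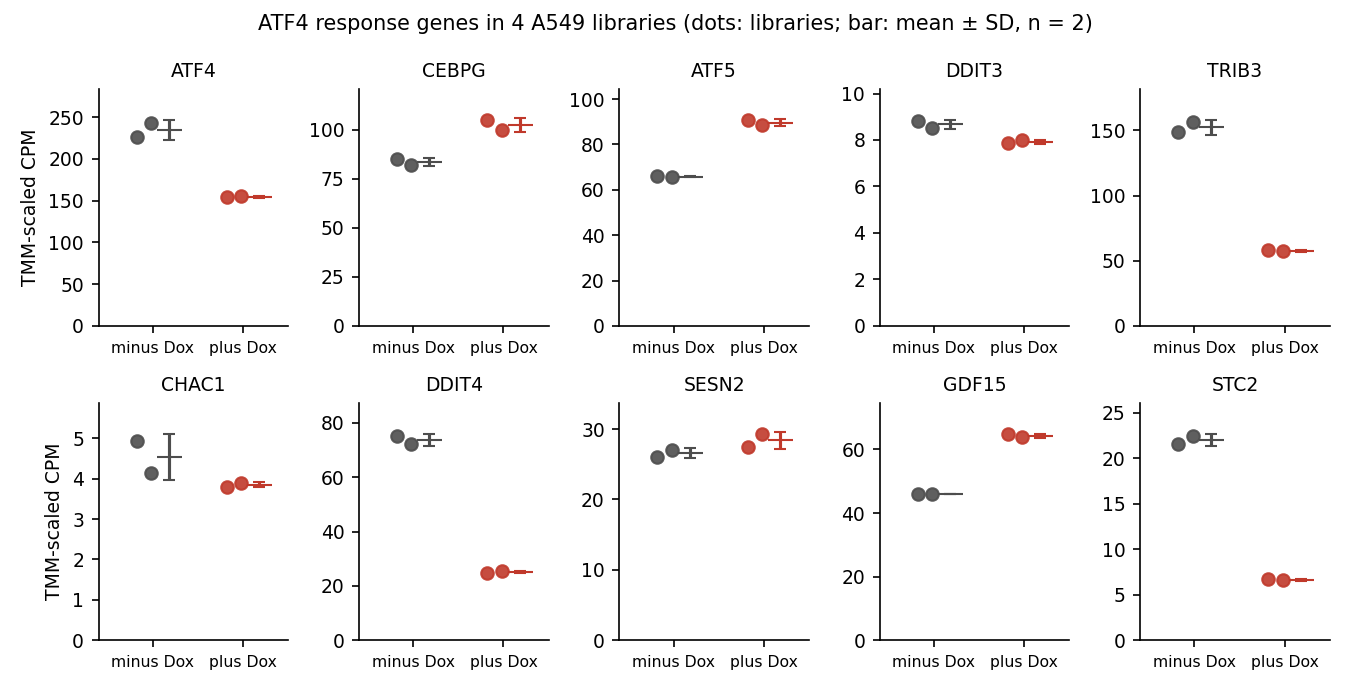
TMM-scaled CPM of each member (y axis, linear, from 0) in the 2 minus Dox libraries (grey) and the 2 plus Dox libraries (red), with bars for the mean and SD of each group. Each panel has its own scale, on which TRIB3, DDIT4 and STC2 show the widest gaps downward, and GDF15 and ATF5 the widest upward.

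Library totals ranged from 31104964 to 40526912 counts, and the lowest count of any member in any library was 131. Levels are given as TMM-scaled CPM (counts scaled to a common library total), and levels of different genes are compared only per kb of exon. The 10 members together held 708 and 728 CPM in minus Dox and 543 and 538 CPM in plus Dox. Reads counted to FOS, which may include those of A-FOS, went from 1.44 ± 0.113 to 49.7 ± 1.64 CPM (SD, n = 2), the direction that the labels call for. The simple-epithelial keratins KRT8 and KRT18 were abundant in every library, while the lung lineage factor NKX2-1 had 0 counts in both minus Dox libraries. Summed over 6 epithelial markers the level was 8172 and 8316 CPM in minus Dox and 5956 and 5765 CPM in plus Dox, and its part in the members' differences was not tested. Summed over 5 leukocyte markers the level was 1.19 to 2.69 CPM, with CD3E at 0 in all 4 libraries. Over 4 endothelial markers it was 0.805 to 1.63 CPM, and over 5 fibroblast markers 36.2 to 45.2 CPM, of which COL1A1 made up most.

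ATF4 itself, the central factor (ENSG00000128272, chromosome 22, 39519695 to 39522685, hg38), had 226 and 243 CPM in the minus Dox libraries. It had 154 and 155 CPM in the plus Dox libraries. Both plus Dox values thus lie below both minus Dox values, and the distance between groups is several times the spread within either. The group means were 234 ± 12.3 and 155 ± 1.04 CPM (SD, n = 2), which makes ATF4 mRNA 1.52-fold lower in plus Dox. edgeR put the log2 fold change at −0.60 (SE 0.04, adjusted p = 1.14e-14). Its size depends on the processing, at −0.38 with library size only and −0.26 after detrending, where it still passed. ATF4 has 4 annotated processed pseudogenes, between which and the gene the counting may split reads. ATF4P3 took the most, 44 and 70 counts without doxycycline and 35 and 28 with it, beside 5211 to 9117 for ATF4.

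The genes whose pattern over the 4 libraries was most like that of ATF4 lay outside its pathway lists. The tested genes nearest to it in centred log2 CPM were KIRREL1, an adhesion protein of the nephrin family, the non-coding RNA LINC02987, and RPL24, a protein of the large ribosomal subunit. Each of these 3 had a log2 fold change of −0.60. Their distances from ATF4, over 4 libraries, were 0.0138, 0.0138 and 0.0144 on the log2 scale. Among the members CHAC1 lay nearest to ATF4, at 0.452, with 4510 tested genes nearer. This nearness is a description of 4 libraries from 2 groups and carries no test.

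The related bZIP factors ATF5 and CEBPG moved opposite to ATF4. ATF5, which like ATF4 is translated through upstream reading frames under stress (ENSG00000169136, chromosome 19, 49928702 to 49933935), had 66.0 and 65.6 CPM in minus Dox. In plus Dox it had 90.8 and 88.4 CPM. The groups do not overlap, and edgeR gave a difference of 0.44 on the log2 scale (SE 0.05, adjusted p = 1.86e-09). Of its exon bases 21.2% lie opposite exons of NUP62 and IL4I1 and 2.51% on the same strand as another gene, and without a stated strand setting such reads cannot be told apart. NUP62 was lower in plus Dox (−0.43), the opposite direction to ATF5.

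CEBPG, a C/EBP protein that serves as a dimer partner of ATF4 (ENSG00000153879, chromosome 19, 33373330 to 33382686), had 85.0 and 82.3 CPM in minus Dox and 105 and 100.1 CPM in plus Dox. Both plus Dox values are the higher ones, by a modest amount. The means were 83.6 ± 1.88 and 103 ± 3.49 CPM (SD, n = 2), and the log2 difference was 0.30 (SE 0.05, edgeR adjusted p = 2.81e-06). It passed as higher in every alternative run, but its size moved from 0.18 after detrending to 0.51 with library size only.

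DDIT3, which encodes CHOP, the pro-apoptotic bZIP factor downstream of ATF4 (ENSG00000175197, chromosome 12, 57516588 to 57521737), was low in all libraries. It had 8.81 and 8.53 CPM in minus Dox and 7.86 and 7.99 CPM in plus Dox. Plus Dox was lower by a small margin, and DDIT3 did not pass (log2 fold change −0.13, 95% interval −0.37 to 0.11, edgeR adjusted p = 0.373). Its sign turned with library size only (0.09) and after detrending (0.18), without passing in either. Of its exon bases 31.6% lie opposite exons of MARS1 and MBD6 and 8.03% on the same strand as another gene, which leaves its count uncertain. MARS1 was lower (−0.27) and MBD6 higher (0.40) in plus Dox.

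TRIB3, a pseudokinase that binds ATF4 and CHOP and dampens their activity (ENSG00000101255, chromosome 20, 362835 to 397559), showed the lowest adjusted p of the members. It had 148 and 156 CPM in minus Dox and 58.2 and 57.2 CPM in plus Dox. The plus Dox libraries agree closely and sit far below the controls. The level was 2.64-fold lower, or −1.40 on the log2 scale (SE 0.05, edgeR adjusted p = 1.41e-23). Only 3.82% of tested genes had a log2 fold change as low or lower.

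CHAC1, which degrades glutathione (ENSG00000128965, chromosome 15, 40952962 to 40956519), is often used as a sensitive readout of ATF4 activity. Its counts were the lowest of the members, with 4.94 and 4.13 CPM in minus Dox and 3.80 and 3.90 CPM in plus Dox, from 131 to 167 counts per library. The values in plus Dox are slightly lower, but the difference did not pass (log2 fold change −0.23, 95% interval −0.57 to 0.11, edgeR adjusted p = 0.244).

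DDIT4 and SESN2 both restrain the growth kinase mTORC1 under stress, and DDIT4 alone of them passed the test. DDIT4 (REDD1, ENSG00000168209, chromosome 10, 72273920 to 72276036) had 75.2 and 72.1 CPM in minus Dox and 24.7 and 25.4 CPM in plus Dox. The groups lie far apart, and the level was 2.94-fold lower, or −1.56 on the log2 scale (SE 0.06, edgeR adjusted p = 9.65e-22). Of its exon bases 41.2% lie opposite the antisense gene ENSG00000269926, which has 0 counts in every library, and DDIT4 is therefore uncertain as to reads in that stretch. SESN2 (ENSG00000130766, chromosome 1, 28259527 to 28282491) had 26.0 and 27.0 CPM in minus Dox and 27.5 and 29.3 CPM in plus Dox. Its groups nearly touch, with a log2 fold change of 0.10 (95% interval −0.05 to 0.25, edgeR adjusted p = 0.274).

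The secreted products GDF15 and STC2 went in opposite directions. GDF15, a circulating cytokine raised by mitochondrial and other stress (ENSG00000130513, chromosome 19, 18374731 to 18389176), had 46.0 and 46.1 CPM in minus Dox and 64.8 and 63.8 CPM in plus Dox. It was 1.40-fold higher, or 0.48 on the log2 scale (SE 0.06, edgeR adjusted p = 3.63e-09), and neither group overlaps the other. STC2, a stanniocalcin glycoprotein induced by stress of the endoplasmic reticulum (ENSG00000113739, chromosome 5, 173314713 to 173329503), had 21.5 and 22.4 CPM in minus Dox and 6.67 and 6.56 CPM in plus Dox. This was the deepest fall of the members, 3.32-fold, or −1.73 on the log2 scale (SE 0.10, edgeR adjusted p = 5.10e-17). Within groups, STC2 and GDF15 each varied less than the median tested gene, with SDs of 0.0318 and 0.0111 on the log2 scale against 0.0875. So did every other member except CHAC1 (0.128).

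**Figure D2:**
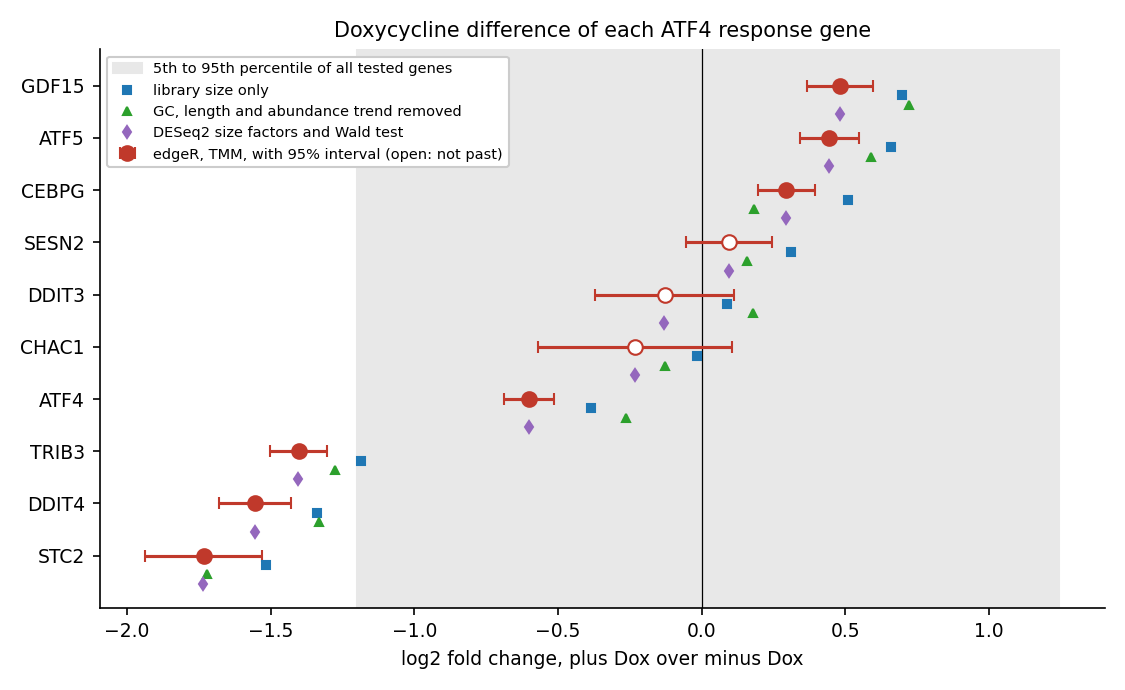
Fitted log2 fold change of plus Dox over minus Dox (x axis) for each member (y axis) with its 95% interval, filled where the test passed, beside 3 alternative settings and a grey band for the 5th to 95th percentile of all tested genes (−1.20 to 1.24). STC2, DDIT4 and TRIB3 lie below the band in the main analysis, and no member lies above it. The band is that of the main analysis, so it does not rank values of the other settings. TRIB3 with library size only lies just inside it, but the median of all tested genes is then 0.22 instead of 0.00.

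The order of the levels per kb of exon changed with doxycycline. In minus Dox ATF4 came highest at 93.2 CPM per kb, followed by TRIB3 at 44.4, DDIT4 at 35.8, ATF5 at 22.3, GDF15 at 22.1 and CEBPG at 19.0 CPM per kb. Below them came SESN2 at 7.68, DDIT3 at 6.63, STC2 at 3.59 and CHAC1 at 2.20 CPM per kb. No neighbours in that order overlapped between libraries, although ATF5 and GDF15 differed by little. In plus Dox ATF4 was still highest at 61.5 CPM per kb, but GDF15 (30.8), ATF5 (30.3) and CEBPG (23.3) now stood above TRIB3 (16.8) and DDIT4 (12.2). GDF15 and ATF5 overlapped there and could not be ordered. At the low end STC2, at 1.08 CPM per kb, fell below CHAC1 at 1.87. These levels use the union of annotated exons as length, which may not be the isoform that the cells use.

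**Figure D3:**
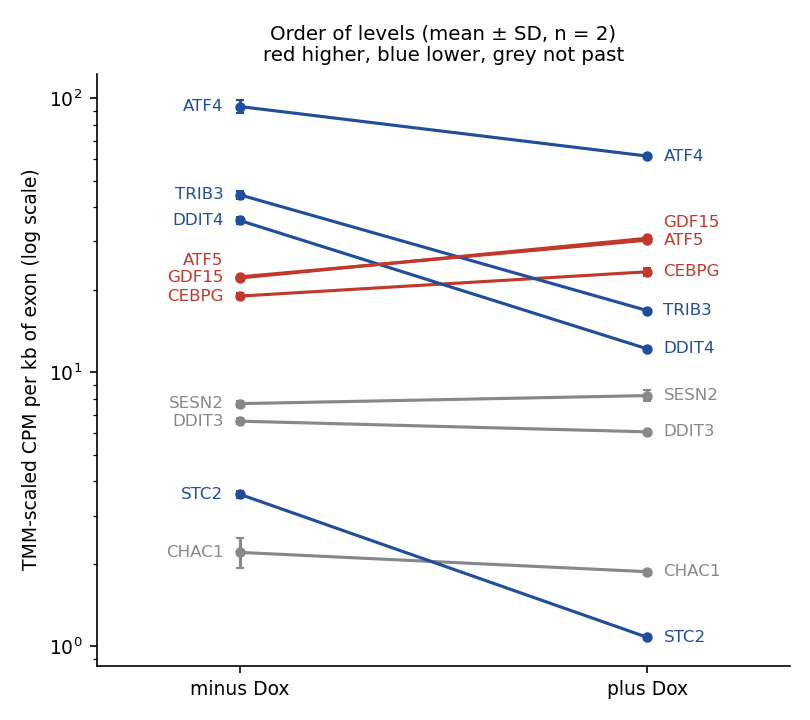
Mean level per kb of exon (y axis, log scale, with SD over n = 2) of each member in minus Dox and plus Dox, joined by a line, red where the gene was called higher, blue lower and grey not past. The lines of TRIB3 and DDIT4 cross those of ATF5, GDF15 and CEBPG, and the line of STC2 crosses that of CHAC1.

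Sequence before the transcription start was searched because ATF4 with C/EBP binds the C/EBP-ATF response element and AP-1 binds its own short palindrome. RefSeq promoters (GRCh38.p14) gave 17 windows for the 10 members, some with several starts, and each window was the 250 bases before a start. The C/EBP-ATF response element was searched as TGATGNAA on both strands, and 3.14% of 35116 windows of all genes hold it. Among the members it was found in the window of CHAC1 and in 1 window of CEBPG. The AP-1 element was searched as TGANTCA, whose reverse complement is the same pattern, and 6.57% of all windows hold it. Among the members it was found in 1 window of ATF5 and in both windows of DDIT3, at the same place. The cAMP response element TGACGTCA, held by 1.65% of all windows, was in 0 of the members' windows. The stretches of 30 bases around these matches are shown because they are the only matches among the members, 5′ to 3′ on the gene's strand, with the match in capitals.
CHAC1 (chr15:40953251-40953280, plus strand): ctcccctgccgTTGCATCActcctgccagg
CEBPG (chr19:33374060-33374089, plus strand): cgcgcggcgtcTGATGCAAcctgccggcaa
ATF5 (chr19:49928707-49928736, plus strand): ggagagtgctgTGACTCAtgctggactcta
DDIT3 (chr12:57520737-57520766, minus strand): gcgcgcgcgcaTGACTCAcccacctcctcc

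These windows precede RefSeq starts, and GENCODE places other starts further out, so many of them are partly or wholly transcribed sequence in that annotation. Only GENCODE exons of the member itself were counted, and exons of other genes were not looked at. All 250 bases of the CHAC1 window and 204 bases of the ATF5 window with the match lie in such exons. Of the CEBPG window with the match 33 bases do, and of the DDIT3 windows 3 and 0. Among windows without a match, those of ATF4 and STC2 lie wholly in their own exons, GDF15 has 241 such bases and each TRIB3 window 174. The match of CHAC1 is on the opposite strand of the gene, from 209 to 202 bases before the start, and that of CEBPG lies from 42 to 35 bases before its start. CHAC1 (−0.23) and DDIT3 (−0.13) did not pass the test, while CEBPG (0.30) and ATF5 (0.44) were higher in plus Dox. The members with the deepest falls, STC2, DDIT4 and TRIB3, hold none of these letters in the windows searched. A match is a description of letters and not of binding, and a window without a match says nothing of elements further away. DDIT4 fell 2.94-fold, and its window lies almost wholly outside its own annotated exons. Its 250 bases are shown whole, with no capitals because no motif matched.
DDIT4 (chr10:72273674-72273923, plus strand): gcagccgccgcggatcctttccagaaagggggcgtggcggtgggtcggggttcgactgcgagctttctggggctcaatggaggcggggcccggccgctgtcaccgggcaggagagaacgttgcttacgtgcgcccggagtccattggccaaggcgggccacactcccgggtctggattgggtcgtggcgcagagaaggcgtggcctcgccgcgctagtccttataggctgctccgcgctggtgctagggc

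Of 7 tested paralogs of the members 4 were higher and 3 lower in plus Dox, beside 28.4% of all tested genes each way. The counts were the same by library size only, with 3 of each after detrending. TRIB1 and TRIB2, relatives of TRIB3, fell with it, from 34.6 to 8.59 CPM and from 2.31 to 0.816 CPM. STC1, the relative of STC2, went from 44.9 down to 14.6 CPM (−1.62 on the log2 scale). Relatives of DDIT4, CHAC1 and SESN2 were higher instead. DDIT4L rose from 2.72 to 5.79 CPM, CHAC2 from 10.7 to 18.3 CPM and SESN3 from 10.5 to 26.3 CPM. SESN1 also rose, by 0.41 on the log2 scale, though it did not pass after detrending. TRIB2, SESN1 and DDIT4L were named after their values were seen.

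Upstream of ATF4, the genes for the eIF2alpha kinases, its phosphatase subunits and the mitochondrial relay differed by small amounts. Of 11 tested genes 3 were higher, 5 lower and 3 not past, beside 28.4% of all tested genes each way. Their median log2 fold change was 0.03, with a range from −0.45 to 0.33. That balance turns to 7 higher and 2 lower with library size only, and 3 were lower without either plus Dox library in turn. With DESeq2 2 were higher and 4 lower, and after detrending 3 were higher and 5 lower. The median turned to −0.04 without minus Dox replicate 2 and to −0.07 after detrending, and was 0.25 with library size only. All tested genes had medians of 0.00, 0.03 and 0.22 in these runs. EIF2AK4, the amino acid sensor GCN2, fell from 85.5 to 62.8 CPM and its activator GCN1 from 536 to 396 CPM. EIF2AK2, the RNA sensor PKR, rose from 104 to 131 CPM, and EIF2AK3, the endoplasmic reticulum kinase PERK, had 0.20 on the log2 scale (edgeR adjusted p = 0.0422), a call lost with DESeq2, after detrending, with no filter, and without minus Dox replicate 2 or plus Dox replicate 1.

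The mitochondrial relay runs from the protease OMA1 through DELE1 to EIF2AK1, the heme-regulated kinase HRI. OMA1 did not pass (0.17), though it passed as higher with library size only (0.38). DELE1 had −0.14 and EIF2AK1 −0.12, the latter 2 past the test. With library size only DELE1 turned to 0.08, which did not pass. EIF2AK1 passed in the opposite direction, as higher, with library size only (0.09, edgeR adjusted p = 0.0313) and after detrending (0.13, edgeR adjusted p = 0.000113). The call of EIF2AK1 was also lost without plus Dox replicate 1, and that of DELE1 without either plus Dox library or minus Dox replicate 2. PPP1R15A (GADD34), the stress-induced phosphatase subunit that is itself an ATF4 pathway target, fell from 41.0 ± 1.43 to 34.2 ± 2.62 CPM (SD, n = 2), a call lost with library size only and without plus Dox replicate 2. Its constitutive counterpart PPP1R15B rose from 86.0 to 105 CPM. The GCN2 inhibitor IMPACT (0.06) and EIF2S1 (0.03), which encodes eIF2alpha, did not pass. Both passed as higher with library size only (0.28 and 0.25) and as lower after detrending (−0.30 and −0.23), so no direction can be given for them. They are among the 5 upstream genes that were lower after detrending. Not all of EIF2AK4, GCN1, PPP1R15A and DELE1 therefore kept their call in that run. With DESeq2 only 4 upstream genes were lower, against 5 in the main analysis.

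**Figure D4:**
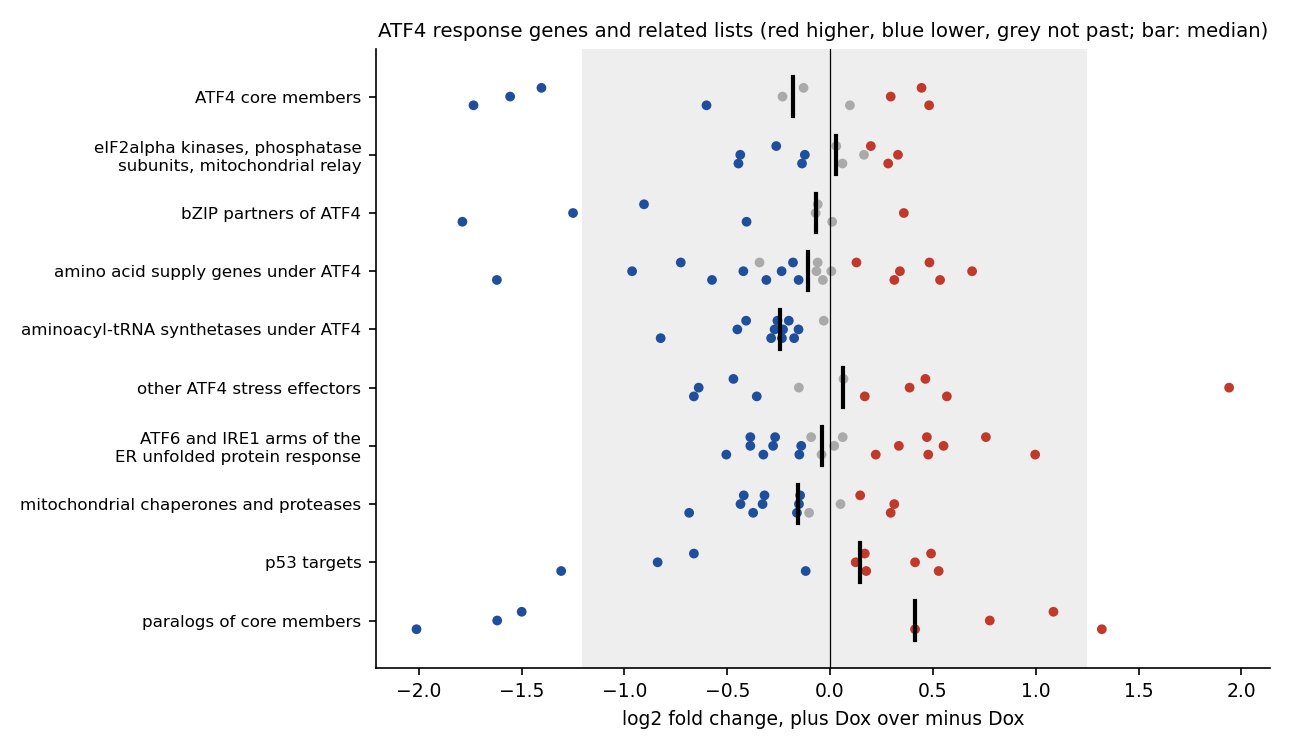
Log2 fold change of plus Dox over minus Dox (x axis) for every tested gene of the ATF4 core and 9 related lists (y axis), red where called higher, blue lower, grey not past, with black bars for medians and a grey band for the 5th to 95th percentile of all tested genes. FOS (5.10) is left out of the bZIP row for scale but counts in its median. The tRNA synthetases lie below 0 throughout. With library size only they do not, and the median of all tested genes is then 0.22.

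Of 20 genes for amino acid supply 6 were higher, 9 lower and 5 not past, beside 28.4% of all tested genes each way. With library size only 10 were higher and 5 lower, where 72.9% of called genes were higher. After detrending 7 were higher and 7 lower. The list's median of −0.11 turned to 0.11 with library size only, beside 0.22 for all tested genes, and to 0.02 after detrending, beside 0.03. The glycine transporter SLC6A9 fell from 35.5 to 11.5 CPM and the proline synthesis enzyme PYCR1 from 71.4 to 36.6 CPM. SLC3A2, the shared chain of several amino acid transporters, fell by 0.57 and the cationic amino acid transporter SLC7A1 by 0.73 on the log2 scale. Among genes named after their values were seen, the mitochondrial folate enzyme MTHFD2 rose from 108 to 175 CPM and the asparagine synthetase ASNS from 41.7 to 51.7 CPM. Exon overlap leaves both uncertain, with 33.2% of MTHFD2 on the opposite strand and 44.6% of ASNS on the same strand as another gene. PYCR1 shares 14.1% of its exon bases on the same strand and 15.6% on the opposite strand. The leucine transporter SLC7A5, also named afterwards, fell by 0.42 but passed as higher, at 0.27, after detrending.

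Aminoacyl-tRNA synthetases, which charge tRNAs with amino acids, were lower in 11 of 12 tested genes, with 0 higher and a median of −0.24, where 28.4% of all tested genes were lower. With library size only 3 of the 12 were lower and 1 higher, and after detrending 4 were lower and 1 higher. The count of 11 thus depends on both choices. The synthetase median was −0.03 with library size only, beside 0.22 for all tested genes, and −0.04 after detrending, beside 0.03. AARS1 fell from 410 to 232 CPM, LARS1 from 211 to 155 CPM and EPRS1 from 291 to 219 CPM. MARS1 fell from 284 to 236 CPM, a call lost with library size only and after detrending. NARS1, named after its value was seen, did not pass at −0.03, but passed as higher with library size only (0.18) and after detrending (0.13).

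Of 11 tested stress effectors 5 were higher, 4 lower and 2 not past, beside 28.4% of all tested genes each way. With library size only 6 were higher and 3 lower, where 72.9% of called genes were higher. The hormone gene FGF21 was too low to test. The autophagy receptor SQSTM1 fell from 756 to 486 CPM and the translation repressor EIF4EBP1 from 93.1 to 67.2 CPM, the latter call lost after detrending. Of the exon bases of SQSTM1 22% lie opposite other genes. MAP1LC3B, a protein of autophagosome membranes, rose from 123 to 161 CPM and the endoplasmic reticulum oxidase ERO1A from 78.9 to 109 CPM. ADM2, a peptide hormone of the adrenomedullin family named once its value had been seen, rose from 1.07 ± 0.157 to 4.11 ± 0.347 CPM (SD, n = 2).

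Of 9 bZIP factors that can pair with ATF4, 2 were higher, 4 lower and 3 not past. With library size only 3 were higher and 4 lower. Of all tested genes 28.4% were higher and 28.4% lower in the main analysis. FOS is 1 of the 2 bZIP genes higher there, and its reads may include those of the induced A-FOS. CEBPB, a main partner of ATF4, fell from 98.4 to 74.3 CPM. NFE2L2, named after its value was seen, rose by 0.36 on the log2 scale, with 17.6% of its exon bases on the same strand as another gene. JUN, FOSL1 and ATF3, the last named after its value was seen, were lower by edgeR, at −1.79, −1.25 and −0.90.

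The neighbouring stress pathways were also divided, where 28.4% of all tested genes were higher and 28.4% lower. Of all called genes 72.9% were higher with library size only and 53.7% after detrending. In the ATF6 and IRE1 arms of the endoplasmic reticulum response 7 of 19 tested genes were higher, 8 lower and 4 not past (12 higher and 4 lower with library size only, 12 and 2 after detrending). The chaperone HSPA5 (BiP) fell from 604 to 461 CPM, while its co-chaperones DNAJB9 and DNAJC3 rose from 12.6 to 25.2 CPM and from 54.4 to 79.7 CPM. HSPA5 lost its call after detrending. SEL1L, of the degradation machinery, rose by 0.48 on the log2 scale. Of 14 mitochondrial chaperones and proteases 3 were higher, 9 lower and 2 not past (4 higher and 4 lower with library size only, 4 and 5 after detrending). HSPD1, HSPA9, TRAP1 and LONP1 fell by 0.44, 0.37, 0.68 and 0.42 on the log2 scale, HSPA9 not after detrending, though 29.3% of the exon bases of TRAP1 lie opposite another gene. The 3 that were higher, named after their values were seen, were YME1L1 (0.31), TIMM17A (0.29) and CLPP (0.15), the last lost with DESeq2, with no filter and without minus Dox replicate 2 or either plus Dox library. The 13 mRNAs of the mitochondrial genome have 0 counts throughout, so mitochondrial transcripts could not be set beside the members.

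SESN2, GDF15 and DDIT4 also answer to other stress factors, p53 among them, so p53 targets were read beside them. Of 10 tested p53 targets 6 were higher, 4 lower and 0 not past, beside 28.4% of all tested genes each way. With library size only 7 were higher and 3 lower, and after detrending 3 of each. ZMAT3 rose from 40.1 to 56.3 CPM. PHLDA3 fell from 127 to 71.1 CPM, GADD45A from 21.3 to 8.63 CPM and BBC3 from 18.4 to 11.6 CPM. Of the exon bases of PHLDA3 19.1% lie on the same strand as another gene. The cell cycle inhibitor CDKN1A, named after its value was seen, had −0.12 and lost its call without plus Dox replicate 2. It passed in the opposite direction, as higher, with library size only (0.10) and after detrending (0.23). Whether p53 activity has a part in the members' values was not tested.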

How the data were processed

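Raw, unscaled counts of each Ensembl gene were deposited by the authors for 4 polyA RNA-seq libraries. DRAGEN, cutadapt 4.0, STAR 2.7.10b, featureCounts 2.0.3, DESeq2 2.11.40.7 and build hg38 are named per the submitters' processing notes. Annotation release and strand setting: not given in the sources used here. IDs were matched to symbols by a table and to GENCODE 29 (GRCh38), which held 57447 of 58051 genes, for coordinates and lengths.

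In R 4.3.3, genes were kept with filterByExpr (18046) and scaled by TMM (factors 0.926 to 1.08). Group was tested with edgeR 4.0.16 (quasi-likelihood), and p-values were adjusted by Benjamini-Hochberg over all tested genes. Alternatives were library size only, DESeq2 1.42.0, no low-count filter, leaving out each library, a replicate block, and removal of a spline trend (5 degrees of freedom) on GC content, exon length and abundance (detrending), with and without the block. The pipeline was tested on simulated data in which few genes changed, evenly up and down, so that test does not bear on the choice of scaling. A count of 0 allows up to 3 counts, 0.0740 to 0.0964 CPM, for counting error only.

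The members and lists were chosen with earlier results of these data known, so no list was tested. All members were named, with the whole upstream list, up to 4 genes of lowest adjusted p from each other list, and the 3 genes nearest to ATF4.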

Additional observations from a re-analysis of the deposited data

How the results depend on the processing

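All 7 calls among the members kept their direction and passed in every alternative run. DDIT3 turned to 0.087 with library size only and to 0.18 after detrending, with and without a replicate block, and passed in none. With library size only 7862 tested genes were higher and 2927 lower, against 5133 and 5132. Over the related lists 52 were then higher and 30 lower, against 34 and 56, and 35 were lower after detrending, also with a replicate block. The members' median of −0.18 became 0.036 with library size only, 0.015 after detrending and 0.015 with a replicate block as well. All tested genes had medians of 0.22, 0.031 and 0.032 in these runs, against 0.00 in the main run. When 1 library was left out the members' median ran from −0.26 to −0.10. Detrending turned EIF2AK1 (0.13), IMPACT (−0.30), EIF2S1 (−0.23), OMA1 (−0.093), MARS1 (0.000246), SLC7A5 (0.27), NARS1 (0.13) and CDKN1A (0.23), with the replicate block too (0.13, −0.30, −0.23, −0.093, 0.000364, 0.27, 0.13 and 0.23). Library size only turned EIF2AK1 (0.093), DELE1 (0.079), NARS1 (0.18) and CDKN1A (0.10). IMPACT ran from −0.037 to 0.16 when 1 library was left out, turning without minus Dox replicate 2. The cause was not tested. A replicate block alone changed no call among the named genes, and deviations of same-numbered libraries correlated at 0.00226 over genes. With 2 libraries per group this cannot settle whether same-numbered libraries share a culture or batch.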
